A study of Rattus norvegicus with 20 samples.

Results

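Salt-loaded SS rats labelled Ccl2-/- were compared with SS rats kept on low salt, to ask which genes of the kidney microvessels stood at the low-salt SS level in the null rats in spite of the salt diet, and which did not. The 10 libraries were chosen by their labels from the 20 of the series, and 16153 of the 16672 listed genes reached 10 normalized counts in at least 5 of the 20 libraries and were tested. The Dahl salt-sensitive (SS) rat is an inbred strain in which dietary salt raises blood pressure and injures the kidney. Ccl2 is a chemokine that draws monocytes out of the blood through its receptor Ccr2. Small kidney arteries narrow when pressure rises, which is called the myogenic response, and the title of the study names the preservation of this tone in SS rats and the part of Ccl2 in it.

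Salt-loaded null rats were 5 SS Ccl2-/- males on a 4.0% NaCl diet for 2 weeks. They were set against 5 SS males with the genotype label CCl2+/+ on a 0.3% NaCl diet for the same time, called low-salt SS rats. Null rats on 0.3% NaCl and SS rats on 4.0% NaCl, 5 rats each, entered the same fit and are given where they place a value. All 4 groups share the SS background, and every rat was male. Diet and genotype both differ between salt-loaded null and low-salt SS rats, so the effects of the 2 cannot be told apart in any value of this comparison. The labels do not say which part of Ccl2 was removed, in which cells, or whether rats with the same number share a litter or a day, so p-values measure the spread between these animals only.

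Levels are normalized counts, the authors' read counts after division by 1 scaling factor per library. Depth was 28.6 ± 6.57 M reads in salt-loaded null and 32.6 ± 4.84 M in low-salt SS libraries (SD, n = 5 each). Mitochondrially encoded transcripts took 9.77 to 16.5% of reads in salt-loaded null libraries and 22.6 to 42.6% in low-salt SS libraries, with no overlap. The vessels carried tubule RNA: the marker list of the proximal tubule took 2.65% ± 0.175 of the reads outside mitochondrially encoded genes in salt-loaded null rats and 2.69% ± 0.253 in low-salt SS rats. Blood endothelial markers took 0.425% ± 0.0380 in salt-loaded null rats and 0.286% ± 0.0448 in low-salt SS rats, and smooth muscle markers 0.378% ± 0.0337 in salt-loaded null rats and 0.323% ± 0.0419 in low-salt SS rats. Among cell type markers that are listed genes, none was at 0 in all libraries of either group. That outcome was nearly fixed, since every listed gene has at least 100 reads in all. Markers that are not listed could not be assessed, and of 11 neutrophil and mast cell markers only 4 are listed.

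The salt-loaded null vessels differed widely from the low-salt SS vessels, and almost equally in both directions. At a limma adjusted p below 0.05, 4582 genes differed, which is 28.4% of those tested: 2281 (14.1%) were higher and 2301 (14.2%) lower in salt-loaded null rats. The difference was at least 2-fold for 565 of them, 372 higher and 193 lower. Every salt-loaded null library was above every low-salt SS library for 1547 genes (9.58%) and below for 1684 (10.4%), and such genes are called separate in range. A gene is described here as staying within 1.5-fold when it was not called and the 95% interval of its log2 difference lay inside ± 0.585, the log2 of 1.5. This held for 7443 genes (46.1%). The remaining 4128 (25.6%) were neither called nor narrow enough to place, and are described as undetermined. Being called and lying inside the margin are not exclusive, since 1572 called genes also had their whole interval inside it. Fewer cells of a type and less RNA per cell cannot be told apart in these bulk libraries.

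The split between higher and lower rests on the authors' scaling. Scaled to the library total instead, 8718 genes were called, 8496 higher and 222 lower, and the median log2 difference of all genes was 0.392 in place of 0.004. Scaled to the total without mitochondrially encoded genes, 4671 were called, 3057 higher and 1614 lower, with a median of 0.073. Adding the mitochondrial share of each library to the model (called the share-adjusted fit below) left 3265 genes called, 1486 higher and 1779 lower. The share does not overlap between salt-loaded null and low-salt SS libraries, so this fit separates it poorly from the comparison. A call lost there does not show that a gene did not differ. Medians of lists under library-total scaling are given below relative to 0.392. That scaling moves all genes of a library by the same factor, so these relative medians repeat the main fit and are no check of it.

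**Figure D1:**
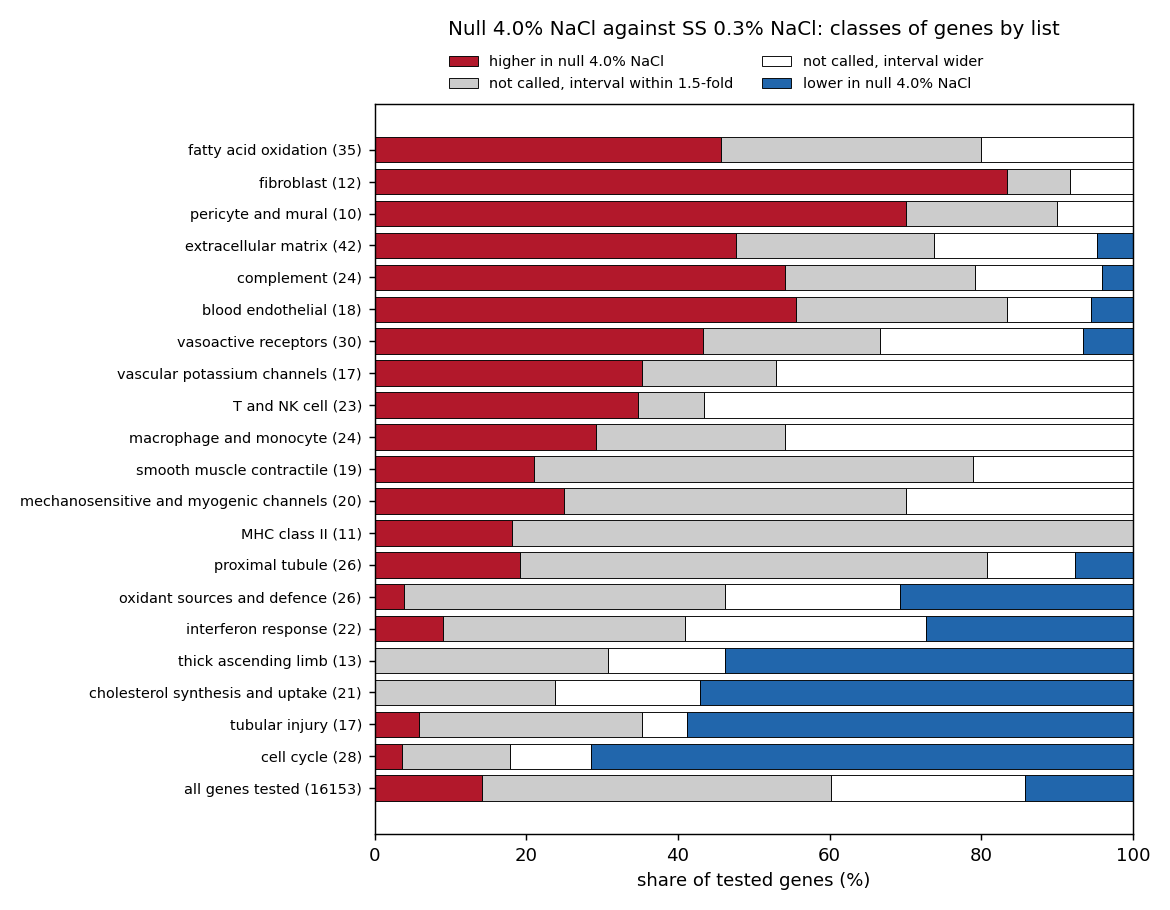
Share of tested genes (x axis, %) in each class for 20 gene lists and for all 16153 genes tested; the number of tested members is in brackets. Red is higher and blue lower in salt-loaded null rats (limma adjusted p below 0.05), grey is not called with a 95% interval within 1.5-fold, and white is not called with a wider interval. Fibroblast, mural and endothelial lists are mostly red and the cell cycle and tubular injury lists mostly blue, beside 14.1% red and 14.2% blue of all genes; on the library-total scale the interferon and oxidant lists had no lower calls.

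Creb3l3, Atp12a and Igfbp3 were among the 12 genes with the largest increases. These 12 were taken from called genes with a mean of at least 50 normalized counts and separate ranges. Creb3l3, a liver-enriched transcription factor of lipid metabolism, had 945, 803, 306, 264 and 165 normalized counts in salt-loaded null rats, against 12.1, 20.6, 29.3, 26.4 and 19.3 in low-salt SS rats. The difference was 4.21 ± 0.97 (log2 ± SE, limma adjusted p = 0.00291), and the salt-loaded null libraries also differed several-fold among themselves. Atp12a, the colonic H,K-ATPase of the collecting duct, had 945, 474, 504, 589 and 156 in salt-loaded null rats, against 40.0, 33.3, 28.3, 55.9 and 44.5 in low-salt SS rats (3.52 ± 0.67, adjusted p = 0.000672). Igfbp3, a carrier of insulin-like growth factors, had 7803, 17158, 17454, 13676 and 14368 in salt-loaded null rats, against 2208, 1369.9, 1911, 2119 and 2807 in low-salt SS rats (2.74 ± 0.38, adjusted p = 3.93e-05). The ranges of all 3 genes were separate between the groups, which the selection required and which is no further result. The other genes among the 12 largest increases included Fam180a (2.65 ± 0.42), the membrane transporter Abca8a (2.21 ± 0.17), the cytokine receptor Cntfr (2.11 ± 0.40), the lymphangiogenic ligand Vegfd (2.02 ± 0.34), the adhesion protein Svep1 (2.00 ± 0.21) and the sodium channel Scn7a (1.98 ± 0.27).

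Among the 12 largest decreases, taken under the same conditions, 6 were mitochondrially encoded and are described with that list. Sphkap, an anchoring protein of protein kinase A, had 35.3, 22.3, 32.6, 6.60 and 16.8 in salt-loaded null rats, against 135, 124, 65.2, 98.1 and 75.6 in low-salt SS rats (-2.22 ± 0.36, adjusted p = 0.000155). Car3, a carbonic anhydrase abundant in fat cells, had 20.9, 45.6, 37.4, 50.1 and 30.4 in salt-loaded null rats, against 206, 235, 179, 81.2 and 118 in low-salt SS rats (-2.08 ± 0.39, adjusted p = 0.000595). In both genes, as the selection required, every salt-loaded null library lay below every low-salt SS library. Mybpc2, a myosin binding protein, differed by -1.92 ± 0.22, the hedgehog acyltransferase Hhat by -1.64 ± 0.23 and the Wnt ligand Wnt9b by -1.64 ± 0.34. Separate ranges were likewise required for these 3.

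Ccl2 transcripts were detected in every null library, and in salt-loaded null libraries they stood below the low-salt SS level. Ccl2 had 79.4, 99.5, 107, 128 and 77.5 normalized counts in salt-loaded null rats, against 199, 138, 190.2, 196 and 212 in low-salt SS rats. No salt-loaded null library reached the lowest low-salt SS library. The log2 difference was -0.93 ± 0.22 (limma adjusted p = 0.00329), and an exact permutation test of the 5 against 5 rats gave p = 0.00794 (two-sided), the smallest that groups of this size allow. Since a null allele may leave its RNA in place, these levels do not check the genotype labels, and every direction here rests on them. Null rats on 0.3% NaCl averaged 173 ± 35.4 and differed from low-salt SS rats by -0.12 ± 0.22 (adjusted p = 0.808). In the share-adjusted fit the salt-loaded null difference of Ccl2 was -0.65 and was no longer called (adjusted p = 0.162). Its receptor Ccr2 had 147, 168, 151, 219 and 179 in salt-loaded null rats, against 115, 133, 128, 188 and 169.7 in low-salt SS rats. The ranges overlapped, and the difference of 0.24 ± 0.18 was undetermined (adjusted p = 0.326, 95% interval -0.13 to 0.61). For placement, Ccr2 averaged 154 ± 32.6 in null rats on 0.3% NaCl and 349 ± 98.3 in SS rats on 4.0% NaCl.

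Injured tubule cells are marked by a set of genes, among them Havcr1, also called kidney injury molecule 1, and Lcn2, a siderophore-binding protein. Some genes of the injury list, such as Spp1, Clu and Cd24, were abundant in low-salt SS libraries too. The injury list was lower in salt-loaded null rats than in low-salt SS rats: of 17 tested members 10 were lower, against 14.2% of all genes. Another 5 stayed within 1.5-fold, against 46.1%, while 1 was higher and 1 undetermined. The list median was -0.50, against 0.004 for all genes. Scaled to the library total, 5 were lower and 3 higher, and the list median was -0.50 relative to all genes.

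Havcr1 had 224, 191, 145, 245 and 168 normalized counts in salt-loaded null rats, against 626, 964, 689, 489.5 and 707 in low-salt SS rats. Each salt-loaded null library held less than each low-salt SS library (-1.82 ± 0.30, adjusted p = 0.000175). Lcn2 had 291, 351, 262, 347 and 297 in salt-loaded null rats, against 577, 749, 455, 644 and 866 in low-salt SS rats (-1.06 ± 0.23, adjusted p = 0.00181). Spp1, the secreted phosphoprotein osteopontin, had 20543, 23504, 20359, 25513 and 27808 in salt-loaded null rats, against 35237, 61557, 40939, 55687 and 61251 in low-salt SS rats (-1.09 ± 0.24, adjusted p = 0.00215). Both were likewise separate in range. Under quantile normalization Spp1 differed by -0.84 and was no longer called (adjusted p = 0.148), and in the share-adjusted fit Lcn2 differed by -0.94 (adjusted p = 0.0626). The surface glycoprotein Cd24 was lower as well, at 7105 ± 808 in salt-loaded null rats and 12770.0 ± 1108 in low-salt SS rats (-0.85 ± 0.14, adjusted p = 0.000216).

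Other injury markers stayed at the low-salt SS level. Clu, the chaperone clusterin, had 9707, 10361, 9656, 10268 and 8859 in salt-loaded null rats, against 11886, 13480.4, 11084, 9173 and 9787 in low-salt SS rats, and the groups overlapped (-0.17 ± 0.17, 95% interval -0.53 to 0.19). Timp1, an inhibitor of matrix metalloproteinases, had 461, 495, 452, 529 and 418 in salt-loaded null rats, against 633, 549, 497, 497 and 503 in low-salt SS rats (-0.18 ± 0.15, 95% interval -0.50 to 0.13). The intermediate filament Vim (-0.05 ± 0.13) and the lipid droplet coat protein Plin2 (0.03 ± 0.11) also stayed within 1.5-fold. The member that was higher was Vcam1, an adhesion molecule for leukocytes, with 1269, 1759, 1536, 1668 and 1833 in salt-loaded null rats, against 1167, 916, 1059.7, 1164 and 1039 in low-salt SS rats (0.59 ± 0.12, adjusted p = 0.0016), and its ranges did not overlap.

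**Figure D2:**
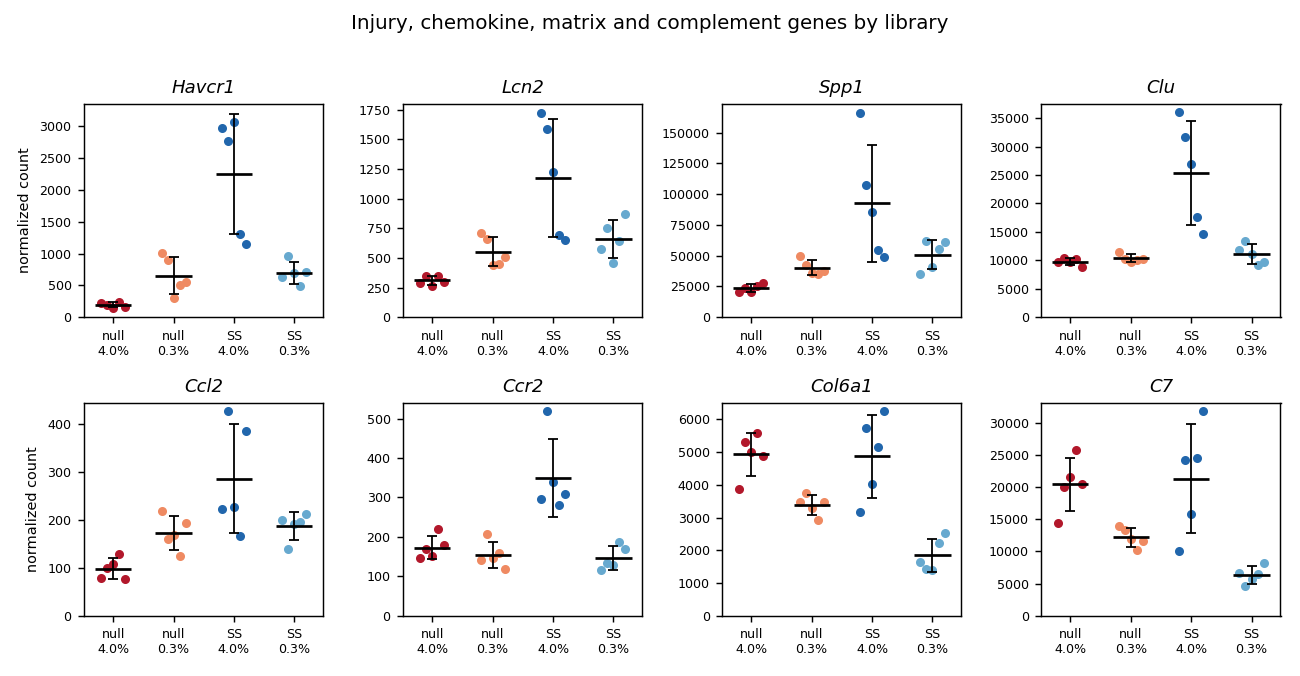
Normalized counts (y axis, linear, from 0) of 8 genes in each of the 20 libraries, by genotype and NaCl diet (x axis). Points are rats, the line is the mean and the bar the SD of 5 rats. Havcr1, Lcn2, Spp1 and Ccl2 are below the low-salt SS libraries in the salt-loaded null libraries, Clu and Ccr2 overlap them, and Col6a1 and C7 are above them.

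Leukocyte genes did not move as one group. Of 24 macrophage and monocyte genes 7 were higher, against 14.1% of all genes, 0 lower, 6 within 1.5-fold and 11 undetermined. The list median was 0.31. Adgre1, the macrophage antigen F4/80, had 1872, 2694, 1844, 2325 and 1870.1 normalized counts in salt-loaded null rats, against 1751, 903, 925, 1417 and 1274 in low-salt SS rats, with no overlap (0.79 ± 0.18, adjusted p = 0.00297). Mrc1, a mannose receptor of tissue macrophages, had 179, 179, 217, 212 and 209 in salt-loaded null rats, against 82.4, 111, 80.4, 143 and 147 in low-salt SS rats (0.86 ± 0.21, adjusted p = 0.00432). The complement subunit C1qb was higher (0.51 ± 0.12, adjusted p = 0.00449). The signalling adaptor Tyrobp (-0.07 ± 0.12) and the Fc receptor Fcgr1a (0.26 ± 0.14) stayed within 1.5-fold, while Cd68 differed by 0.28 ± 0.30 and was undetermined. In the share-adjusted fit 1 macrophage gene was higher and 1 lower. Without salt-loaded null rat 2 or low-salt SS rat 2 the number of higher genes was 3 each time, and without salt-loaded null rat 4 or low-salt SS rat 3 it was 4 each time.

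Some lymphocyte genes were higher and most were undetermined. Of 23 T and NK cell genes 8 were higher, against 14.1% of all genes, 0 lower, 2 within 1.5-fold and 13 undetermined. The list median was 0.38. Klrd1, an inhibitory receptor of natural killer cells, had 115, 127, 124, 172 and 182 in salt-loaded null rats, against 73.9, 33.3, 44.6, 69.6 and 75.6 in low-salt SS rats, with separate ranges (1.31 ± 0.27, adjusted p = 0.00121). Il7r, the interleukin 7 receptor, had 174, 199, 143, 214 and 212 in salt-loaded null rats, against 72.7, 85.7, 98.9, 128 and 126 in low-salt SS rats (0.89 ± 0.21, adjusted p = 0.00335). The 8 also held Cd247, the zeta chain of the T cell receptor complex, which is named after its values were seen. The granule protein Nkg7 was higher too (0.89 ± 0.24, adjusted p = 0.0089). Cd3e, another chain of the T cell receptor complex, had 111, 153, 129, 158 and 165 in salt-loaded null rats, against 87.3, 141, 109, 145 and 179 in low-salt SS rats, and its difference of 0.15 ± 0.22 was undetermined. The count of 8 was 4 to 5 without salt-loaded null rats 2, 3 or 5 or low-salt SS rats 2 or 3, and 5 in the share-adjusted fit. Of 8 tested B and plasma cell genes the transcription factor Pax5 and the receptor chain Cd79a were lower, against 14.2% of all genes. The other 6 were undetermined. Pax5, however, was at 14.9 or less in all salt-loaded null libraries and did not pass on recovered reads with edgeR (adjusted p = 0.102). Without salt-loaded null rat 5 neither was called (adjusted p = 0.0614 for Pax5 and 0.101 for Cd79a), and Cd79a was also lost without salt-loaded null rats 1 or 2 or low-salt SS rats 1, 2 or 5.

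MHC class II genes, which present antigen to T cells, stayed at the low-salt SS level. Of 11 tested, 9 were within 1.5-fold, against 46.1% of all genes, and 2 were higher, against 14.1%. On the library-total scale 7 were higher and 0 within 1.5-fold, with a median of 0.00 relative to all genes. Reads of the RT1 genes are uncertain between near-identical copies. RT1-Da had 9195, 11275, 11653, 10715 and 10891 in salt-loaded null rats, against 11686, 8978, 11241, 12897 and 13392 in low-salt SS rats, and the ranges overlapped widely (-0.11 ± 0.10, 95% interval -0.32 to 0.11). RT1-DMa differed by 0.10 ± 0.09. The higher members were RT1-DOb (0.69 ± 0.15, adjusted p = 0.00159) and the antigen-processing protease Ctss (0.70 ± 0.17, adjusted p = 0.00347), neither of which was called in the share-adjusted fit.

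Interferon response genes were more often lower than higher. Of 22 tested, 6 were lower, against 14.2% of all genes, 2 higher, 7 within 1.5-fold and 7 undetermined, with a median of -0.23. On the library-total scale this direction turned, with 9 higher and 0 lower, and the list median was -0.23 relative to all genes. The guanylate-binding protein Gbp2 had 899, 864, 822, 1021 and 1005 in salt-loaded null rats, against 1228, 1337, 1119, 1511 and 1497 in low-salt SS rats (-0.53 ± 0.11, adjusted p = 0.00129). Gbp5 (-0.53 ± 0.13), the immunoproteasome subunit Psmb9 (-0.46 ± 0.10) and the antiviral enzyme Oasl (-0.65 ± 0.18) were also lower. In the share-adjusted fit 4 were lower, and Gbp2 and Gbp5 were not called. The number lower was also 4 without salt-loaded null rats 1, 2, 3 or 4 or low-salt SS rats 1, 3, 4 or 5. It was 5 without salt-loaded null rat 5 and 6 without low-salt SS rat 2. The transcription factor Irf1 stayed within 1.5-fold (0.08 ± 0.10).

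Of 43 chemokines and chemokine receptors 9 were higher, against 14.1% of all genes, 1 lower (Ccl2), 7 within 1.5-fold and 26 undetermined. Ccl21, which guides cells towards lymphatic vessels, had 2019, 2078, 1954, 1842 and 1515 in salt-loaded null rats, against 652, 587, 830.4, 475 and 802 in low-salt SS rats (1.51 ± 0.15, adjusted p = 3.76e-06). Ccl3, a chemokine of activated macrophages, had 108, 109, 157, 169 and 155 in salt-loaded null rats, against 49.7, 41.3, 51.1, 66.5 and 87.4 in low-salt SS rats (1.246 ± 0.20, adjusted p = 0.000159). All salt-loaded null libraries lay above all low-salt SS libraries for both. The decoy receptor Ackr2 had 12.1, 13.9, 11.8, 9.24 and 9.42 in salt-loaded null rats, against 1.21, 0, 0, 1.06 and 2.52 in low-salt SS rats, levels too low for a stable fold. Cxcl14 was higher but overlapped (1.96 ± 0.37, adjusted p = 0.000616), and was not called in the share-adjusted fit. Among 16 adhesion genes 5 were higher, among them Vcam1, and 2 lower, against 14.1% and 14.2% of all genes. Selp, the platelet and endothelial selectin, had 28.7, 37.2, 30.5, 27.7 and 22.0 in salt-loaded null rats, against 55.8, 52.4, 39.1, 49.6 and 58.8 in low-salt SS rats (-0.79 ± 0.21, adjusted p = 0.00753). Icam1 stayed within 1.5-fold (0.25 ± 0.11), though every salt-loaded null library was above every low-salt SS library. Without low-salt SS rat 3 the count of higher adhesion genes was 3.

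Fibroblast and matrix genes did not stay at the low-salt SS level. Fibroblasts of the vessel wall secrete fibrillar collagens and proteoglycans. Of 12 fibroblast genes 10 were higher, against 14.1% of all genes, 0 lower, 1 within 1.5-fold and 1 undetermined. The list median was 0.98, against 0.004 for all genes. The list took 0.166% ± 0.0208 of the reads outside mitochondrially encoded genes in salt-loaded null rats and 0.0895% ± 0.0146 in low-salt SS rats, with ranges of 0.139 to 0.190% in salt-loaded null rats and 0.0726 to 0.101% in low-salt SS rats. The part of fibroblast number in the matrix values was not tested. Pdgfra, a growth factor receptor of fibroblasts, had 1797, 2304, 2171, 2522 and 2084 in salt-loaded null rats, against 1189, 1011, 1089, 1036 and 1134 in low-salt SS rats (0.99 ± 0.13, adjusted p = 2.76e-05). Dcn, the proteoglycan decorin, had 4974, 7833, 7014, 8077 and 6590.5 in salt-loaded null rats, against 3854, 2609.7, 2843, 3197 and 3423 in low-salt SS rats (1.11 ± 0.16, adjusted p = 6.58e-05). Both were separate in range, like the collagens that follow.

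Of 42 matrix genes 20 were higher and 2 lower, against 14.1% and 14.2% of all genes. Another 11 were within 1.5-fold, against 46.1%, and 9 undetermined, with a list median of 0.33. Col6a1, a chain of the microfibrillar collagen of the vessel wall, had 3884, 5305, 4999.9, 5575 and 4875 in salt-loaded null rats, against 1639, 1427, 1411, 2215 and 2529 in low-salt SS rats (1.45 ± 0.17, adjusted p = 9.46e-06). The fibrillar collagen Col3a1 had 7567, 9636, 8027, 10960.4 and 8163 in salt-loaded null rats, against 4376, 2849, 3241, 4557 and 5202 in low-salt SS rats (1.15 ± 0.14, adjusted p = 1.70e-05). Col1a2 (1.22 ± 0.15), Col5a2 (1.10 ± 0.11), Col5a1 (0.95 ± 0.12) and Col1a1 (0.79 ± 0.14) were higher as well. Sparc, a collagen-binding protein of high level, stayed within 1.5-fold at 44492 ± 3639 in salt-loaded null rats and 39363 ± 4351 in low-salt SS rats (0.18 ± 0.13). The lower members were Spp1 and the proteoglycan Vcan, which the naming rule did not select and which was added after its values were seen. Vcan had 148, 178, 172, 186 and 147 in salt-loaded null rats, against 358, 384, 248, 299.6 and 278 in low-salt SS rats (-0.90 ± 0.17, adjusted p = 0.000709), and was not called in the share-adjusted fit.

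Complement genes were more often higher than lower. Of 24 tested, 13 were higher and 1 lower, against 14.1% and 14.2% of all genes. Another 6 were within 1.5-fold and 4 undetermined, with a list median of 0.41. Masp1, the protease that starts the lectin pathway, had 285, 393, 409, 410.4 and 341 in salt-loaded null rats, against 80.0, 81.0, 78.3, 108 and 146 in low-salt SS rats (1.92 ± 0.22, adjusted p = 8.11e-06). C7, a component of the membrane attack complex, had 14361, 19928, 21599, 25682 and 20399 in salt-loaded null rats, against 6578, 4643, 5642, 6515 and 8274 in low-salt SS rats (1.69 ± 0.22, adjusted p = 2.47e-05). The lowest salt-loaded null library was above the highest low-salt SS library for both. The classical pathway proteases C1s (1.36 ± 0.18) and C1r (1.24 ± 0.20) were higher too. The share-adjusted fit had 8 of the list higher and 0 lower.

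Contractile genes of smooth muscle stayed at the low-salt SS level at a share not far above that of all genes. Smooth muscle contracts when calcium activates myosin light chain kinase, and its contractile list holds actin, myosin and their partners. Of 19 tested, 11 were within 1.5-fold, against 46.1% of all genes, and 4 were higher, against 14.1%. A further 4 were undetermined and 0 lower, and the list median was 0.14. Scaled to the library total, 12 were higher and 2 within 1.5-fold (median 0.14 relative to all genes), and in the share-adjusted fit 5 were higher and 4 within 1.5-fold. Acta2, smooth muscle actin, had 13249.8, 12433, 10203, 9608 and 11889 in salt-loaded null rats, against 8953, 8845, 9913, 12114 and 9540.0 in low-salt SS rats (0.22 ± 0.14, 95% interval -0.07 to 0.51), and the groups overlapped. Tropomyosin Tpm1 (-0.16 ± 0.10), desmin Des (0.07 ± 0.10) and caldesmon Cald1 (0.14 ± 0.10) were placed likewise. Myh11, the smooth muscle myosin heavy chain, had 16472, 18064, 12404, 12056 and 14300.3 in salt-loaded null rats, against 9482, 11471, 9600.1, 14494 and 9116 in low-salt SS rats and was undetermined (0.44 ± 0.18, adjusted p = 0.0737). Without low-salt SS rat 4 it was called higher (adjusted p = 0.0286). The kinase Mylk (0.56 ± 0.13, adjusted p = 0.00274) and the actin nucleator Lmod1 (0.73 ± 0.20, adjusted p = 0.0111) were higher.

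**Figure D3:**
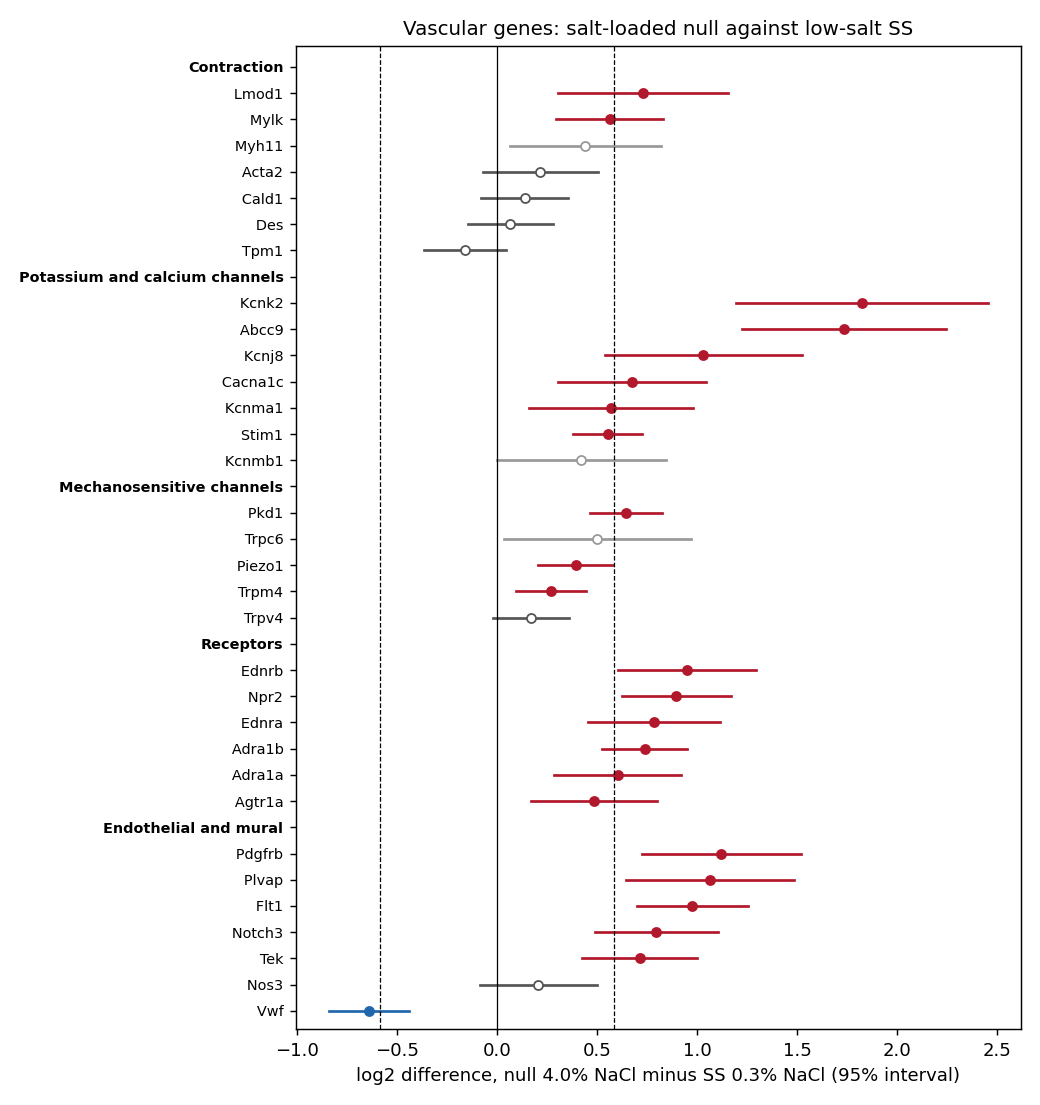
Log2 difference of salt-loaded null minus low-salt SS rats with its 95% interval (x axis) for 32 vascular genes. Red is higher, blue lower (filled, limma adjusted p below 0.05), open points are not called, and dashed lines mark 1.5-fold in either direction. Intervals of Acta2, Tpm1, Des, Cald1, Trpv4 and Nos3 lie inside the dashed lines, those of Kcnk2, Abcc9, Plvap and Flt1 outside them.

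Potassium channels hyperpolarise smooth muscle and oppose contraction. Of 17 tested, 6 were higher, against 14.1% of all genes, 0 lower, 3 within 1.5-fold and 8 undetermined, with a median of 0.32. Abcc9, the sulphonylurea receptor subunit of the vascular ATP-sensitive channel, had 820.1, 1201, 995, 1037 and 1093 in salt-loaded null rats, against 272, 287, 204, 440.0 and 387 in low-salt SS rats (1.73 ± 0.25, adjusted p = 4.91e-05). Kcnj8, the pore subunit of the same channel, had 451, 716, 590.1, 608 and 564 in salt-loaded null rats, against 269, 159, 271, 442 and 356 in low-salt SS rats (1.03 ± 0.24, adjusted p = 0.00291). Both ranges were separate, though Kcnj8 was not called in the share-adjusted fit. Kcnk2, a stretch-sensitive leak channel, had 77.2, 51.1, 65.8, 54.1 and 50.3 in salt-loaded null rats, against 17.0, 19.0, 21.7, 9.50 and 15.1 in low-salt SS rats (1.82 ± 0.30, adjusted p = 0.000201). Kcnmb1, the smooth muscle subunit of the calcium-activated channel, was undetermined (0.42 ± 0.20), and was called without low-salt SS rat 4 (adjusted p = 0.0449).

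Calcium enters smooth muscle through voltage-gated and store-operated channels. Of 21 genes of calcium channels and stores 8 were higher, against 14.1% of all genes, 3 lower, 6 within 1.5-fold and 4 undetermined. Cacna1c, the pore of the L-type channel, had 224, 255, 261, 272 and 269 in salt-loaded null rats, against 182, 121, 150.0, 191 and 166 in low-salt SS rats (0.67 ± 0.18, adjusted p = 0.00781), with separate ranges. The store sensor Stim1 was higher (0.55 ± 0.08, adjusted p = 8.07e-05). Of 20 mechanosensitive channels and partners, the candidates for sensing pressure, 5 were higher, against 14.1% of all genes. Another 9 were within 1.5-fold, against 46.1%, with 0 lower and 6 undetermined. The 9 included the sodium channel subunits Scnn1a, Scnn1b and Scnn1g, which are also in the list of collecting duct principal cells. Without low-salt SS rat 4 the number higher was 8, and in the share-adjusted fit 2. On the library-total scale 16 were higher and 2 within 1.5-fold. Pkd1, polycystin 1, had 2238, 2770.2, 2436, 2316 and 2495 in salt-loaded null rats, against 1348, 1630.3, 1425, 1892 and 1579.8 in low-salt SS rats (0.64 ± 0.09, adjusted p = 2.76e-05). The stretch-activated channel Piezo1 (0.39 ± 0.09, adjusted p = 0.00281) and the calcium-activated cation channel Trpm4 (0.27 ± 0.08, adjusted p = 0.0196) were higher by less, and neither was called in the share-adjusted fit. Trpm4 was also lost without salt-loaded null rat 2 (adjusted p = 0.0617). Trpv4 stayed within 1.5-fold (0.17 ± 0.09). Trpc6 was undetermined (0.50 ± 0.23, adjusted p = 0.101), and was called higher without low-salt SS rat 4 (adjusted p = 0.021).

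Many receptors for vasoactive hormones were higher. Of 30 tested, 13 were higher, against 14.1% of all genes, 2 were lower, 7 within 1.5-fold and 8 undetermined, with a median of 0.37. Ednrb, the endothelin B receptor, had 1380.0, 1406, 1349.9, 1509.8 and 1200.0 in salt-loaded null rats, against 693, 879, 513, 885 and 637 in low-salt SS rats (0.95 ± 0.17, adjusted p = 0.000332). The alpha-1B adrenergic receptor Adra1b had 306, 333, 332, 298 and 270.2 in salt-loaded null rats, against 189, 171, 165, 197 and 198 in low-salt SS rats (0.74 ± 0.10, adjusted p = 3.76e-05). The ranges of both were separate. Npr2, the receptor of C-type natriuretic peptide (0.90 ± 0.13), the endothelin A receptor Ednra (0.78 ± 0.16), Adra1a (0.60 ± 0.15) and the angiotensin II receptor Agtr1a (0.48 ± 0.15, adjusted p = 0.0206) were higher. Agtr1a was lost without salt-loaded null rat 2 or low-salt SS rat 2 (adjusted p = 0.0518 and 0.0531). The lower members were added after their values were seen. They were the alpha-1D receptor Adra1d, with 211, 129, 169.7, 220.4 and 191 in salt-loaded null rats, against 293, 454, 423, 331 and 301 in low-salt SS rats (-0.97 ± 0.27, adjusted p = 0.0105), and the nucleotide receptor P2ry2 (-0.57 ± 0.13). Of the list, 6 were higher and 0 lower in the share-adjusted fit.

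Nitric oxide relaxes smooth muscle through guanylate cyclase. Nos3, the endothelial synthase, stayed within 1.5-fold, with 2126, 2184, 2248, 1762 and 2036 in salt-loaded null rats, against 2244, 1597, 1795, 1946 and 1465 in low-salt SS rats (0.21 ± 0.14). Gucy1a1, a subunit of its target cyclase, was higher at 2258 ± 191 in salt-loaded null rats and 1104 ± 276 in low-salt SS rats (1.06 ± 0.21, adjusted p = 0.000881) and its ranges were separate. Of 25 genes in the nitric oxide and prostanoid list 9 were higher, against 14.1% of all genes, 1 lower, 7 within 1.5-fold and 8 undetermined. The higher ones included the fatty acid hydroxylases Cyp4a1, Cyp4a2 and Cyp4a3, whose reads are uncertain between near-identical copies. They are also counted as higher in the fatty acid oxidation list. Without salt-loaded null rat 2 or low-salt SS rat 1 the number higher was 5 each time. In the renin angiotensin and mineralocorticoid list 6 of 19 were higher and 2 lower, against 14.1% and 14.2% of all genes. Fkbp5, a glucocorticoid-induced chaperone, had 1616, 1191, 1544, 1378 and 1672 in salt-loaded null rats, against 702, 938, 889, 819.8 and 943 in low-salt SS rats (0.78 ± 0.16, adjusted p = 0.00116), and the glucocorticoid receptor Nr3c1 differed by 0.31 ± 0.07 (adjusted p = 0.00381).

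Endothelial and mural cell genes were mostly higher. Of 18 blood endothelial genes 10 were higher and 1 lower, against 14.1% and 14.2% of all genes. Another 5 were within 1.5-fold and 2 undetermined, with a list median of 0.34. In the share-adjusted fit 4 were higher, though the median was 0.48, and without low-salt SS rat 3 the number higher was 6. Flt1, a receptor of vascular endothelial growth factor, had 6664, 7330.4, 7308, 6194 and 7541 in salt-loaded null rats, against 4068, 3437, 3244, 3899 and 3196 in low-salt SS rats (0.98 ± 0.13, adjusted p = 3.64e-05). Plvap, the diaphragm protein of fenestrated endothelium, differed by 1.06 ± 0.20 and the angiopoietin receptor Tek by 0.71 ± 0.14. Vwf, von Willebrand factor, went the other way, with 1588, 1480.4, 1433, 1634 and 1349 in salt-loaded null rats, against 2039, 2324, 2631, 2254 and 2431 in low-salt SS rats (-0.64 ± 0.10, adjusted p = 8.40e-05). Flt1 and Vwf were both separate in range, in opposite directions. Of 10 pericyte and mural genes 7 were higher, against 14.1% of all genes, 0 lower, 2 within 1.5-fold and 1 undetermined (median 0.64). The higher ones included the growth factor receptor Pdgfrb (1.12 ± 0.19, adjusted p = 0.000262) and Notch3 (0.80 ± 0.15, adjusted p = 0.000594). Among 8 lymphatic endothelial genes 4 were higher and 1 lower, against 14.1% and 14.2% of all genes. Mmrn1, multimerin 1, had 171, 242, 226, 255 and 180.1 in salt-loaded null rats, against 59.4, 47.6, 53.3, 53.8 and 75.6 in low-salt SS rats (1.87 ± 0.21, adjusted p = 8.11e-06).

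Tubule transcripts in the same libraries are given by segment. Of 26 proximal tubule genes 16 stayed within 1.5-fold, against 46.1% of all genes, and 5 were higher, against 14.1%. The rest were 2 lower and 3 undetermined, and the list median was 0.06. With library totals as the scale, 16 were higher, 1 lower and 6 within 1.5-fold, with a median of 0.06 relative to all genes, and the share-adjusted fit had 9 within 1.5-fold. Slc34a1, the sodium phosphate cotransporter, had 97935, 88864, 91922, 83876 and 75842 in salt-loaded null rats, against 64913, 90326, 91006, 71489 and 83901 in low-salt SS rats, and the groups overlapped (0.13 ± 0.12). The transcription factor Hnf4a stayed within 1.5-fold (0.13 ± 0.08). Slc27a2, a fatty acid transporter, had 22643, 19665, 19619.5, 17292 and 18004 in salt-loaded null rats, against 9566, 11844, 13468, 9508 and 10583 in low-salt SS rats (0.83 ± 0.14, adjusted p = 0.000213), and the cytochrome P450 enzyme Cyp2e1 differed by 1.57 ± 0.17 (adjusted p = 5.27e-06). Gatm, which makes the precursor of creatine, was lower, with 48813, 25422, 40404, 70686 and 38835 in salt-loaded null rats, against 99249, 127888, 118489, 90196 and 115076 in low-salt SS rats (-1.36 ± 0.24, adjusted p = 0.000309). The number of higher proximal genes was 3 without salt-loaded null rats 2 or 3 or low-salt SS rats 1 or 3.

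The thick ascending limb reabsorbs salt and divalent cations. Of its 13 tested genes 7 were lower, against 14.2% of all genes, 0 higher, 4 within 1.5-fold and 2 undetermined, with a median of -0.40. Its markers took 0.979% ± 0.0297 in salt-loaded null rats and 1.37% ± 0.168 in low-salt SS rats. On the library-total scale 3 were lower and 3 higher, with a median of -0.40 relative to all genes, and in the share-adjusted fit 4 were lower. Without low-salt SS rat 2 the number lower was 4. Umod, the secreted protein uromodulin, had 88776, 85892, 99254, 99840.3 and 82323 in salt-loaded null rats, against 228163, 198406, 150432, 162867 and 164304 in low-salt SS rats (-0.97 ± 0.20, adjusted p = 0.00121), with no overlap. Under quantile normalization it differed by -0.43 and was not called. The tight junction proteins Cldn10 (-0.67 ± 0.08), Cldn16 (-0.66 ± 0.12) and Cldn19 (-1.01 ± 0.19) were lower too. In the distal convoluted tubule 7 of 11 genes stayed within 1.5-fold, against 46.1% of all genes, and 2 were lower, against 14.2%. On the library-total scale 2 stayed and 7 were higher. Calb1, the calcium buffer calbindin, was 1 of the 2 lower genes, with 2435, 2515, 2230.2, 2244 and 2213 in salt-loaded null rats, against 7675, 5670.3, 6752, 4206 and 6429 in low-salt SS rats (-1.37 ± 0.14, adjusted p = 4.26e-06).

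Genes of fatty acid oxidation and targets of the nuclear receptor PPAR-alpha, which switches on fat burning, were often higher. Of 35 tested, 16 were higher, against 14.1% of all genes, and 0 lower. Another 12 were within 1.5-fold, against 46.1%, and 7 undetermined, with a list median of 0.37. Vnn1, a pantetheinase, had 8093, 6989, 7448, 5886 and 5455 in salt-loaded null rats, against 1238, 1795, 2343, 1378 and 1737 in low-salt SS rats (2.02 ± 0.30, adjusted p = 6.79e-05). No low-salt SS library reached the salt-loaded null range. The lipase inhibitor Angptl4 (1.87 ± 0.45), the peroxisomal enzyme Ehhadh (0.99 ± 0.24) and the mitochondrial reductase Decr1 (1.01 ± 0.18) were higher. So was the fatty acid hydroxylase Cyp4a1 (1.33 ± 0.25, adjusted p = 0.000595), whose reads are uncertain between near-identical Cyp4a copies. The core enzymes Acadvl (0.19 ± 0.09) and Hadhb (0.21 ± 0.11) stayed within 1.5-fold.

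**Figure D4:**
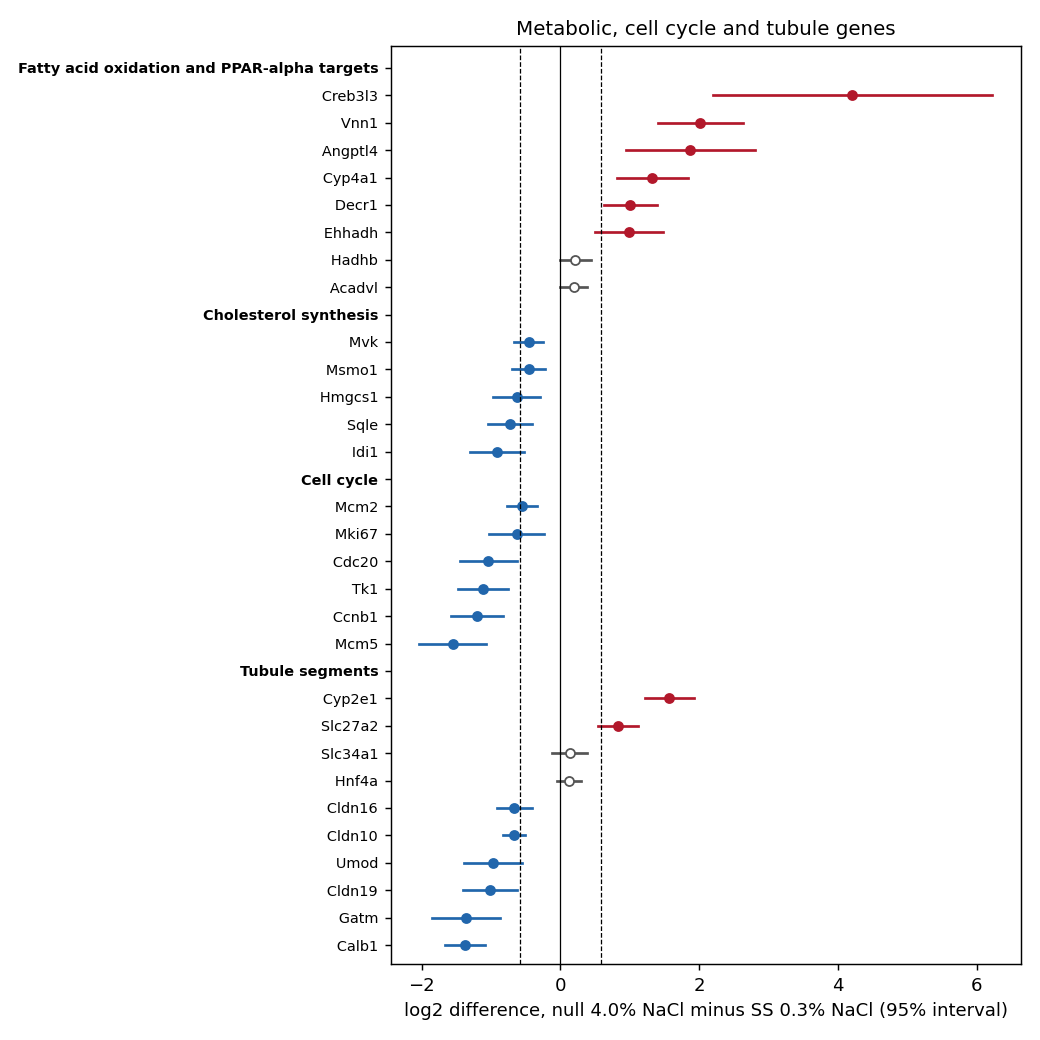
Log2 difference of salt-loaded null minus low-salt SS rats with its 95% interval (x axis) for 29 metabolic, cell cycle and tubule genes. Red is higher, blue lower (filled, limma adjusted p below 0.05), open points are not called, and dashed lines mark 1.5-fold. PPAR-alpha targets reach 4.21 while Acadvl and Hadhb lie inside the dashed lines, and the cholesterol and cell cycle genes are to the left; on the library-total scale the cholesterol list had 1 higher and 1 lower call.

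Cholesterol synthesis genes were lower. Of 21 tested, 12 were lower, against 14.2% of all genes, 0 higher, 5 within 1.5-fold and 4 undetermined, with a median of -0.34. On the library-total scale, however, 1 was lower and 1 higher (median -0.35 relative to all genes). The share-adjusted fit had 8 lower. Idi1, an isomerase of the isoprenoid pathway, had 398, 272, 383, 515 and 438 in salt-loaded null rats, against 932, 787, 725, 665 and 634 in low-salt SS rats (-0.92 ± 0.19, adjusted p = 0.00121). The squalene oxidase Sqle had 422, 298, 381, 381 and 333 in salt-loaded null rats, against 672, 622, 565, 582 and 540.3 in low-salt SS rats (-0.72 ± 0.15, adjusted p = 0.00158). Both were separate in range. Mvk (-0.45 ± 0.10), Msmo1 (-0.46 ± 0.12) and Hmgcs1 (-0.63 ± 0.16) were lower by less.

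Cell cycle genes were lower in salt-loaded null rats. DNA replication needs the MCM helicase, and mitosis is driven by cyclin B and the anaphase-promoting complex. Of 28 tested, 20 were lower, against 14.2% of all genes, 1 was higher, 4 stayed within 1.5-fold and 3 were undetermined, with a median of -0.70. On the library-total scale 9 were lower and 3 higher, with a median of -0.70 relative to all genes. Mcm5, a helicase subunit, had 107, 99.5, 92.1, 109.5 and 76.4 in salt-loaded null rats, against 284, 324, 250.0, 275 and 293 in low-salt SS rats (-1.55 ± 0.23, adjusted p = 7.18e-05). Ccnb1, cyclin B1, had 81.6, 74.4, 48.5, 60.7 and 59.7 in salt-loaded null rats, against 129.7, 127, 179, 140.3 and 174 in low-salt SS rats (-1.20 ± 0.18, adjusted p = 8.18e-05). Cdc20, an activator of the anaphase-promoting complex, had 130.1, 144, 113, 131 and 95.3 in salt-loaded null rats, against 225, 248, 229, 263 and 291 in low-salt SS rats (-1.04 ± 0.20, adjusted p = 0.00069). Each of the 3 was lower in every salt-loaded null library than in any low-salt SS library. Thymidine kinase Tk1 (-1.11 ± 0.17) and Mcm2 (-0.55 ± 0.10) were lower too. The proliferation marker Mki67 differed by -0.63 ± 0.19 (adjusted p = 0.0174), and was lost without salt-loaded null rats 3 or 5 (adjusted p = 0.0605 and 0.0538).

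Promoters of cell cycle genes are known to share the CCAAT box and the cell cycle homology element. The 3 shown were picked because they hold the CCAAT box, out of the first 5 lower genes under the naming rule. Of these 3 only Cdc20 also had the cell cycle homology element (TTTGAA). Of the 2 genes not shown, Tk1 had neither motif in the 250 bases before its start, and Mcm2 had TTTGAA and no CCAAT box. The 150 bases before the start of each gene are from RefSeq (build GRCr8), 5′ to 3′ on the gene's strand, with each CCAAT (or its reverse complement ATTGG) and each TTTGAA (or TTCAAA) in capitals. The Mcm5 promoter lies at chr19:13488663-13488812, plus strand, that of Ccnb1 at chr2:33655226-33655375, minus strand and that of Cdc20 at chr5:137255800-137255949, minus strand.
Mcm5: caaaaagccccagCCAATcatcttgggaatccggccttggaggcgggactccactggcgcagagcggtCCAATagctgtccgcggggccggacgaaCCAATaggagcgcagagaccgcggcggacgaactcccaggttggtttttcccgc
Ccnb1: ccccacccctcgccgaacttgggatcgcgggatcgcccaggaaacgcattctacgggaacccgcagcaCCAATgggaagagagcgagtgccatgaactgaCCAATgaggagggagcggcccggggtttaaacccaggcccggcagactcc
Cdc20: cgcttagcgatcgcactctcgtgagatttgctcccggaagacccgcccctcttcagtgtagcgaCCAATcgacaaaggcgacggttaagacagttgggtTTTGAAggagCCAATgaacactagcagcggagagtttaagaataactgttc
Mcm5 has 3 CCAAT boxes in this stretch and Ccnb1 has 2, and Cdc20 has 2 with 1 TTTGAA between them. Of the 20 lower cell cycle genes 18 had a promoter in the RefSeq table. The 250 bases before the start were searched on both strands. The CCAAT box was found in 14 of these 18 (77.8%), against 36.1% of the 27457 genes with a promoter in that table. TTTGAA was found in 8 of the 18 (44.4%), against 17.2%, and both motifs in 7 (38.9%), against 6.32%. Neither motif contains the other. The 27457 are not limited to genes tested here, and the 18 are all cell cycle genes, so the shares do not bear on being lower. Of the 4 cell cycle genes within 1.5-fold, 2 had a CCAAT box and 0 had TTTGAA. A match is a stretch of letters, not a shown binding site.

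Mitochondrially encoded transcripts, which code for subunits of the respiratory chain, were lower throughout. All 13 were lower, against 14.2% of all genes, with a median of -1.64. Reads of these genes are uncertain between the mitochondrial genome and its copies in the nuclear one. Mt-nd3 had 35187, 32346, 22076, 36382 and 24616 in salt-loaded null rats, against 144644, 108929, 74251, 83947 and 92727 in low-salt SS rats (-1.73 ± 0.26, adjusted p = 7.00e-05), with separate ranges. Mt-co2 (-1.69 ± 0.32), Mt-atp6 (-1.69 ± 0.49), Mt-nd1 (-1.64 ± 0.41), Mt-cyb (-1.64 ± 0.45) and Mt-co3 (-1.62 ± 0.40) differed by nearly as much. None of the 13 was called in the share-adjusted fit, but the share is summed over these same genes, so that fit cannot test them. Quantile normalization gives genes of equal rank the same value in every library, so it cannot test genes at the top rank either. Under it Mt-atp6 differed by 0.00 and Mt-co3 by 0.04. Among 26 nuclear genes of oxidant production and defence 8 were lower and 1 higher, against 14.2% and 14.1% of all genes. Another 11 were within 1.5-fold, against 46.1%, and 6 undetermined, with a list median of -0.20. On the library-total scale 9 were higher and 0 lower (median -0.20 relative to all genes). Sod1, the cytosolic superoxide dismutase, had 15151, 13227, 15749, 14679 and 14169 in salt-loaded null rats, against 22316, 18636, 22975, 18072 and 21529.5 in low-salt SS rats (-0.50 ± 0.10, adjusted p = 0.000942). The peroxiredoxin Prdx1 (-0.45 ± 0.07) and the lipid peroxidase Gpx4 (-0.50 ± 0.09) were lower as well.

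SS rats on 4.0% NaCl were set against the same low-salt SS rats, so the values of both salt-loaded groups are set side by side and not as independent results. Genes of both kinds, with close and with distant values, were picked for this after their values were seen. For 2 collagens and 1 complement component the values were close. Col6a1 differed from low-salt SS rats by 1.45 ± 0.17 in salt-loaded null rats and by 1.40 ± 0.17 in salt-loaded SS rats, Col3a1 by 1.15 ± 0.14 in null and 1.245 ± 0.14 in SS rats, and C7 by 1.69 ± 0.22 in null and 1.67 ± 0.22 in SS rats. Set directly against each other, salt-loaded null and salt-loaded SS rats differed by 0.05 ± 0.17 for Col6a1, -0.09 ± 0.14 for Col3a1 and 0.02 ± 0.22 for C7 (adjusted p = 0.882, 0.73 and 0.964). Umod differed by -0.97 ± 0.20 in salt-loaded null rats and -1.26 ± 0.20 in salt-loaded SS rats.

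For 3 injury markers called lower in salt-loaded null rats the sign was opposite in salt-loaded SS rats. The other lower members of the injury list are not given here for salt-loaded SS rats. Havcr1 differed from low-salt SS rats by -1.82 ± 0.30 in salt-loaded null rats and by 1.61 ± 0.30 in salt-loaded SS rats, Lcn2 by -1.06 ± 0.23 in null and 0.75 ± 0.23 in SS rats, and Spp1 by -1.09 ± 0.24 in null and 0.75 ± 0.24 in SS rats. Salt-loaded null rats averaged 195 ± 40.6 normalized counts of Havcr1, null rats on 0.3% NaCl 650.1 ± 294, salt-loaded SS rats 2253 ± 946 and low-salt SS rats 695 ± 173 (SD, n = 5 each). For genes that stayed within 1.5-fold or were undetermined in salt-loaded null rats, Clu differed by -0.17 ± 0.17 in them and 1.13 ± 0.17 in salt-loaded SS rats, Timp1 by -0.18 ± 0.15 in null and 1.04 ± 0.15 in SS rats, RT1-Da by -0.11 ± 0.10 in null and 0.55 ± 0.10 in SS rats, Cd3e by 0.15 ± 0.22 in null and 0.83 ± 0.22 in SS rats, and Ccr2 by 0.24 ± 0.18 in null and 1.23 ± 0.18 in SS rats. The direct test of salt-loaded null against salt-loaded SS rats gave -1.30 ± 0.17 for Clu, -1.23 ± 0.15 for Timp1 and -0.98 ± 0.18 for Ccr2 (adjusted p = 0.000149, 8.19e-05 and 0.00216). Vnn1 differed from low-salt SS rats by 2.02 ± 0.30 in salt-loaded null rats and by 1.35 ± 0.30 in salt-loaded SS rats, and the direct test of null against SS rats did not pass, at 0.67 ± 0.30 (adjusted p = 0.153).

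**Figure D5:**
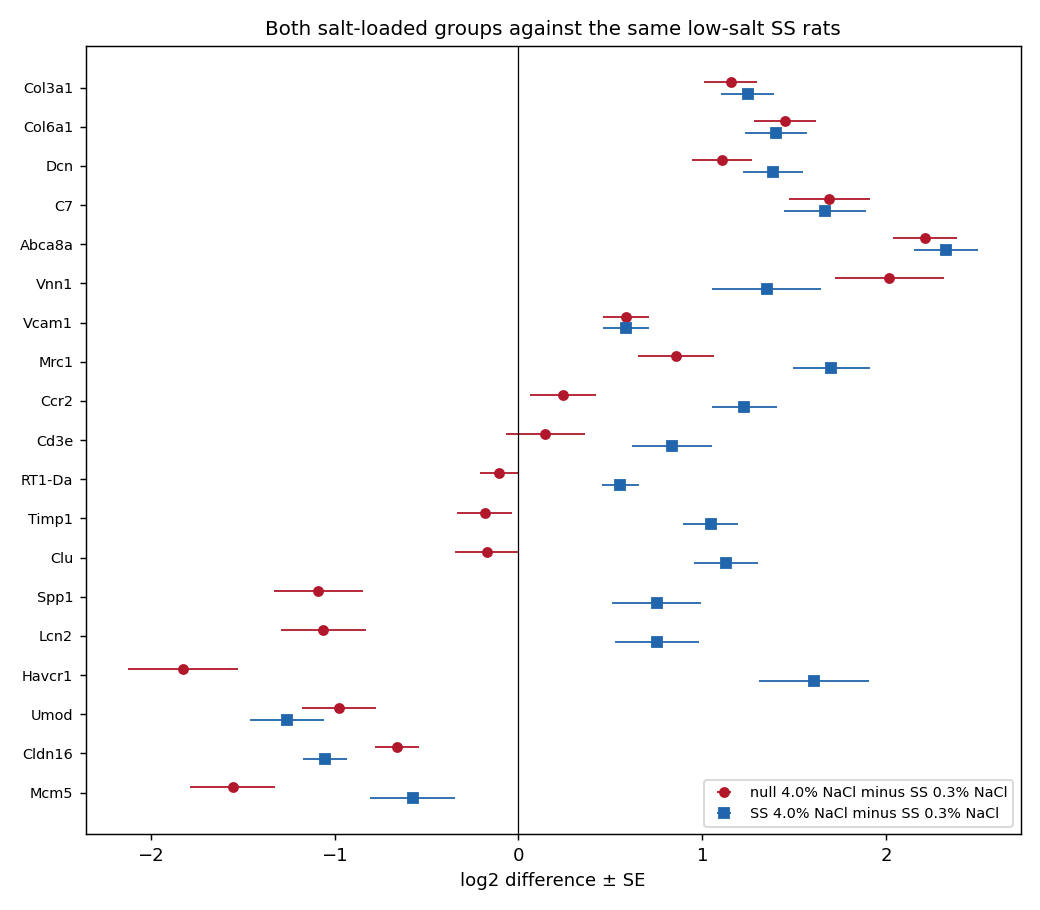
Log2 difference ± SE (x axis) from the same 5 low-salt SS rats for 19 genes, in salt-loaded null rats (red circles) and salt-loaded SS rats (blue squares). The collagens Col3a1 and Col6a1 and the complement component C7 lie close together, Havcr1, Lcn2 and Spp1 lie on opposite sides of 0, and Clu, Timp1 and RT1-Da lie within 0.19 of 0 in salt-loaded null rats and above 0.55 in salt-loaded SS rats.

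The interaction subtracts the difference between diets in SS rats from that in null rats, and was called for 409 genes (2.53%). Havcr1 had an interaction of -3.24 ± 0.42 (adjusted p = 0.000986). Among the genes called in salt-loaded null against low-salt SS rats it was one of the 8 with the smallest interaction p, and the others are given with their levels. Axl, a receptor tyrosine kinase that binds dying cells, averaged 3301 ± 303 in salt-loaded null rats, 2853 ± 129.9 in null rats on 0.3% NaCl, 3928 ± 408 in salt-loaded SS rats and 2013 ± 292 in low-salt SS rats. Its interaction was -0.76 ± 0.13 (adjusted p = 0.00476). Car3 averaged 36.9 ± 11.7 in salt-loaded null rats, 154 ± 52.3 in null rats on 0.3% NaCl, 497 ± 372 in salt-loaded SS rats and 164 ± 63.3 in low-salt SS rats, with an interaction of -3.40 ± 0.55 (adjusted p = 0.00413). Il1rl1, the interleukin 33 receptor, averaged 97.6 ± 31.4 in salt-loaded null rats, 92.7 ± 6.05 in null rats on 0.3% NaCl, 189 ± 34.7 in salt-loaded SS rats and 53.6 ± 17.5 in low-salt SS rats, with an interaction of -1.83 ± 0.32 (adjusted p = 0.0057). In Axl and Il1rl1 the low-salt SS group was the lowest of the 4, and in Car3 salt-loaded SS rats were the highest. The elastic fibre protein Emilin1 (-0.86 ± 0.15), the guanine deaminase Gda (-1.07 ± 0.16), the cytoskeletal spectrin Sptbn4 (-1.92 ± 0.25) and the transcription factor Tbx1 (-1.99 ± 0.29) had negative interactions too. All 4 were higher in salt-loaded null than in low-salt SS rats, by 0.47 ± 0.10, 0.60 ± 0.12, 0.89 ± 0.18 and 1.24 ± 0.20 in that order. Their highest mean was in salt-loaded SS rats, at 2942 ± 437 for Emilin1, 202 ± 18.6 for Gda, 291 ± 82.7 for Sptbn4 and 104 ± 10.2 for Tbx1. Ccl2 and its receptor had interactions of -1.34 ± 0.31 and -1.06 ± 0.25 (adjusted p = 0.0237 and 0.0278).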

How the data were processed

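RNA of dissected kidney microvessels was extracted with TRIzol, treated with DNase and selected for poly A, per the labels' protocols. Per the submitters' processing notes, the rat build was mRatBN7.2 and the tools were STAR 2.7.11b, featureCounts 2.0.6 (Subread), DESeq2 1.44, Trim Galore and MultiQC. Tool settings, strand use included, were not given in the sources used here, so overlapping and antisense genes may share reads. The authors deposited a signal per gene and library, read counts divided by a factor for each library (normalized counts). Values divided by the smallest positive one of their library were whole in 100% of cases (tolerance 1e-06), which recovers the reads. Every listed gene has at least 100 recovered reads in all, so rarer transcripts were not assessed.

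Genes with at least 10 normalized counts in at least 5 libraries entered 1 limma 3.58.1 fit (R 4.3.3, eBayes with trend) of 4 group means to log2(value + 1) of all 20 libraries. The Benjamini-Hochberg adjustment ran over all 16153 genes, with a threshold of 0.05. Log2 differences are given ± SE on this scale, which understates changes of rare transcripts, and levels ± SD. edgeR 4.0.16 (quasi-likelihood) called 4476 genes on the recovered reads, and DESeq2 1.42.0 called 4954. The fit was tested on simulated data.

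The members and the 42 gene lists were chosen with earlier results of these data known. Some lists share genes. Genes are named by rule: Ccl2 and Ccr2, the 12 higher and 12 lower genes of largest difference among those called with a mean of at least 50 and separate ranges, up to 5 called and 4 within-margin members of a described list, a set fixed by name, and the 8 called genes of smallest interaction p. A few genes the rule selects are not printed. Alternatives covered pseudocounts, filters, scalings, fits of the 2 groups alone, library weights, the replicate block, a tubule score and the mitochondrial share as covariates, other margins, leaving out each rat, and leaving out 2 libraries of the other groups that stand apart.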

Additional observations from a re-analysis of the deposited data

Results flagged for a closer look

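The salt effect differed between null and SS rats (limma interaction, null minus SS) for 10 genes named here: Havcr1 (-3.24 ± 0.42), Car3 (-3.40 ± 0.55), Tbx1 (-1.99 ± 0.29), Sptbn4 (-1.92 ± 0.25), Il1rl1 (-1.83 ± 0.32), Ccl2 (-1.34 ± 0.31), Gda (-1.07 ± 0.16), Ccr2 (-1.06 ± 0.25), Emilin1 (-0.86 ± 0.15) and Axl (-0.76 ± 0.13). Of them 8 were picked for a small interaction p, so their sizes are not an unbiased sample.

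In 13 of 296 groups of 5 values, 1 rat lay far from the other 4 of its group (Dixon's ratio above 0.71). That is 4.39%, and chance gives about 5%. In the salt-loaded null group these were rat 1 for Cyp2e1 (12135 normalized counts), Gucy1a1 (1930.0) and Pdgfrb (3932), rat 2 for Agtr1a (2023) and Pax5 (14.9), and rat 3 for Gbp5 (323). In the low-salt SS group they were rat 1 for Cldn16 (1897) and Hmgcs1 (2217), rat 2 for Mt-atp6 (2826294), rat 4 for Stim1 (1024) and Trpc6 (78.1), and rat 5 for Mvk (513) and Scn7a (117).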

How the results depend on the processing

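The count of 4582 called genes was 4577 with a pseudocount of 0.5, 4573 with 8, 4562 without a filter, 4214 with a filter of 100, 4533 with quantile normalization, 4909 with the 2 groups fitted alone, 5539 with library weights, 4770 with the tubule score as a covariate, and 5488 without the 2 libraries of the other groups that stand apart, an alternative that touches this comparison through the shared spread. Leaving out 1 rat at a time gave 3714 to 4708 called genes, 1884 to 2381 higher, 1830 to 2327 lower and 6978 to 7778 within 1.5-fold. It gave Ccl2 differences of -1.04 to -0.85. Scaling to the library total gave 8718 called, 8496 higher, 222 lower and 3780 within 1.5-fold, and reversed 8 of the original calls. Adding the mitochondrial share to the model gave 1486 higher. Margins of 25% and 100% put 3412 and 9726 genes within the margin in place of 7443. edgeR gives no interval, so it has no count within the margin.

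Rat numbers did not pair the groups: the correlation of deviations between same-numbered rats was -0.0308 to 0.105, and 1 of the 5 null rats correlated best with its own number. With the number as a replicate block 4470 genes were called, 7519 stayed within 1.5-fold, and 4310 of the 4582 calls were kept.

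Of the 146 genes named, 25 called ones kept their direction and were no longer called once the mitochondrial share was in the model; the cause was not tested. A further 4, all mitochondrially encoded, lost their call and changed sign: Mt-atp6 differed by 0.46, Mt-cyb by 0.315, Mt-nd1 by 0.168 and Mt-co3 by 0.041 with that covariate, and by 0 (Mt-atp6), 0.034 (Mt-cyb) and 0.036 (Mt-co3) under quantile normalization. Neither setting can test these genes, since the covariate is summed over them and quantile normalization sets values by rank. The spread between 5 rats a group, counting error included, limits the 4128 undetermined genes, whose intervals reached past 1.5-fold.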
